A study of Mus musculus with 4 samples.

Results

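The cytosolic ribosomal protein genes encode the proteins that, with the ribosomal RNAs, make up the large and the small subunit of the ribosome. They were chosen by symbol alone: rows of the deposited count tables named Rpl or Rps with a number, the P stalk genes Rplp0, Rplp1 and Rplp2, and Rpsa, without pseudogene symbols and without the S6 kinases. The rule found 85 of 49997 gene symbols, namely 43 large subunit genes, 30 small subunit genes, 3 P stalk genes and 9 paralogs or copies. RNA was measured in 4 libraries of wild-type iMOP cells, an immortalized mouse line of multipotent otic (inner ear) progenitors. A pair of libraries came from proliferating cells, kept in DMEM/F12 with B27, carbenicillin and bFGF at 20 ng/ml. The other pair came from neurons derived from the same line, kept in Neurobasal medium with N21, L-glutamine and the kinase inhibitor K03861 at 1 µM. The labels call the libraries of each state biological replicates 1 and 2, and both replicate 2 titles add the words set 2, whose meaning they do not give. Wherever 4 values follow each other below, they stand in library order: proliferating replicate 1, then 2, then neuron replicate 1, then 2. All groups thus rest on 1 cell line, and with 2 libraries a state the p-values measure the spread between these libraries only.

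A ribosome needs its proteins in fixed proportions, and growing cells make more of them than cells that have stopped dividing. Many of their mRNAs begin with a C followed by a run of C and T, the terminal oligopyrimidine tract, through which the growth kinase mTOR controls their translation. Several protein genes also carry small nucleolar RNAs in their introns, and almost all have left processed pseudogenes, copies of the mature mRNA, across the genome.

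Start sites were available for 63 of the 85 genes in the RefSeq promoter table (GRCm38.p6), which holds 75 starts for them. The windows below show 15 bases before the annotated start and 15 from it on, with the longest run of C or T in capitals. They were chosen because the values of these genes are described further on. First come 2 genes with large fitted differences between replicates, 2 with a higher fitted level in neurons and 1 paralog. Then follow 1 gene with a lower fitted level in neurons and 2 of the most abundant genes. None of these differences was called at an adjusted p under 0.05 by edgeR.
Rpl35, chr2:39005117-39005146, minus strand: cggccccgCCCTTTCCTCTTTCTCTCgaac
Rpl28, chr7:4792950-4792979, plus strand: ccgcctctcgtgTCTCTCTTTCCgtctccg
Rpl15, chr14:18270972-18271001, minus strand: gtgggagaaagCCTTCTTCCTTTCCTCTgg
Rpl19, chr11:98026695-98026724, plus strand: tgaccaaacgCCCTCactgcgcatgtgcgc
Rpl19, its other annotated start, chr11:98026909-98026938, plus strand: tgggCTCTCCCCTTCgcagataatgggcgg
Rpl22l1, chr3:28805493-28805522, plus strand: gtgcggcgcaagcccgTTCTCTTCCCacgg
Rps15, chr10:80292416-80292445, plus strand: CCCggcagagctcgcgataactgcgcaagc
Rpl13a, chr7:45128731-45128760, minus strand: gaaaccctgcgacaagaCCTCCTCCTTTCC
Rpl4, chr9:64173372-64173401, plus strand: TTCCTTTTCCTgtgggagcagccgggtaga

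Rpl19 has 2 annotated starts in the table, with runs of 5 and 11 bases. Runs of 18 bases for Rpl35 and 17 for Rpl15 span the start itself, whereas Rps15 has no run longer than 3 bases in its window and its annotated start is a G. A run of at least 8 bases was found at 29 of the 75 member starts (38.7%), against 12% of all 32851 starts in the table. A start at C followed by 4 pyrimidines was found at 14 member starts (18.7%), against 2.51% of all starts. The letters CCGGAAG, on either strand in the 250 bases before the start, occurred at 19 member starts (25.3%) and at 6.91% of all starts. TATAA on the gene's strand occurred at 12 member starts (16%) and at 16% of all starts. An annotated start can lie some bases from the start used in these cells, and the libraries do not map starts.

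Total counts ran from 7446361 to 14484011 per library, but 1 row for 18S ribosomal RNA, Rn18s-rs5, held 53.3% to 76.1% of them and more in both replicate 2 libraries than in both replicate 1 libraries. That row was left out, which left 2595578 to 3850766 counts. The library labelled proliferating replicate 2 stands apart. Its log2 CPM correlated with the other 3 at 0.77 to 0.85, while the other 3 correlated at 0.90 to 0.91 with each other. CPM, the count relative to library size, was taken here over the tested genes without the 18S row and scaled by TMM factors. The marker lists also go against the labels in part. Summed CPM of 10 otic progenitor and division genes was 1047, 438, 1269 and 645 in library order, with Pax2 and Pax8 at 0 counts in all 4. The division genes Top2a, at 517, 66.9, 681 and 402 CPM, and Mki67, at 288, 33.4, 369 and 143 CPM, made up most of that sum in 3 libraries. The progenitor factors Sox2, at 92.0, 146, 105 and 67.5 CPM, and Sox9, at 126, 177, 83.8 and 12.8 CPM, were both highest in proliferating replicate 2. Summed CPM of 12 neuronal genes was 519, 1074, 632 and 1140. The neuronal tubulin Tubb3, at 59.2, 590, 89.6 and 321 CPM, carried most of the gap between the proliferating libraries, where only 5 of the 11 tested neuronal genes were higher in replicate 2 (median -0.05), while in neurons all 11 were. Of 9 glial genes the sum was 229, 225, 81.0 and 28.8 CPM, and the astrocyte gene Gfap, at 46.0, 36.7, 0.262 and 0.625 CPM, split the libraries as labelled. So did Fabp7, at 69.1, 149, 55.3 and 2.81 CPM, though neuron replicate 1 lay near proliferating replicate 1. Aqp4, at 90.5, 0.825, 8.12 and 1.56 CPM, did not and was lowest in proliferating replicate 2. For Cnp, at 19.3, 31.4, 15.2 and 22.5 CPM, the states overlapped. Whether the labels of proliferating replicate 2 and neuron replicate 1 are exchanged cannot be settled from these values. With them exchanged, the comparison of replicates below would be that of the states. The marker genes given with values were chosen after these were seen. Hair cell genes summed to between 1.05 and 30.6 CPM, with Pou4f3 and Otof at 0 counts in all libraries, and mesenchyme and blood genes to between 24.1 and 55.8 CPM, with Col1a2, Ptprc and Hbb-bs at 0 counts. In bulk RNA, fewer cells of a type and less RNA per cell cannot be told apart.

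The 85 genes together held 26925, 30771, 35887 and 31160 counts in library order. These were 0.775% (95% Wilson interval 0.766 to 0.784), 1.19% (1.17 to 1.20), 0.932% (0.922 to 0.942) and 0.900% (0.890 to 0.910) of the counts without the 18S row. The intervals cover counting error only. The proliferating libraries thus held both the lowest and the highest share, with the neuron libraries between them. With the 18S row kept in the total, the shares were 0.362%, 0.297%, 0.379% and 0.215%, so that proliferating replicate 2 then lay below proliferating replicate 1. A filter on low counts kept 77 of the 85 genes: 41 large subunit, 29 small subunit, 3 P stalk and 4 paralog or copy genes, among 12683 genes in all.

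The 8 genes that did not pass include 3 canonical genes of the ribosome. Rps2, a small subunit protein at the mRNA entry, had 17, 7, 9 and 3 counts. The large subunit gene Rpl29 had 7, 7, 16 and 8 counts, and Rpl35a, also of the large subunit, had 4, 7, 9 and 4. Of the mRNA of Rps2, 58.5% of all stretches of 100 bases also occur in transcripts of other annotated genes, as do 50.9% for Rpl29 and 31.9% for Rpl35a. The handling of reads with more than 1 match is not given in the sources used here, and the part of shared sequence in these low counts was not tested. The other 5 were paralogs or copies: Rps4l with 2 counts in all, Rpl3l with 1, Rpl6l with 3, 0, 13 and 7, and Rpl39l and Rpl10l with 0 in every library. Rpl6l and the tested Rpl32l are annotated as processed pseudogenes and Rps4l as a transcribed one, so their symbols alone brought them in.

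Levels of the canonical genes were compared per length, as CPM per kilobase of transcript and as the mean over 4 libraries. They spread 71.0-fold over the 73 canonical genes tested, from 7.15 for Rpl21 to 508 for Rpl13a, with a median of 90.4. Rpl13a, a large subunit protein whose gene carries small nucleolar RNAs, had the highest level, and the stalk gene Rplp0 stood at 447. At the other end, Rpl21 at 7.15 and Rpl17 at 7.67, both of the large subunit, were followed by Rpl37a at 18.8. By role, the median was 82.6 over 41 large subunit genes (7.15 to 508), 92.9 over 29 small subunit genes and 380 over the 3 stalk genes (278 to 447). The 4 tested paralogs or copies ran from 9.65 for Rpl22l1 to 58.7 for Rps27l. The stalk, built of Rplp1 and Rplp2 on Rplp0, is where elongation factors dock.

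**Figure D1:**
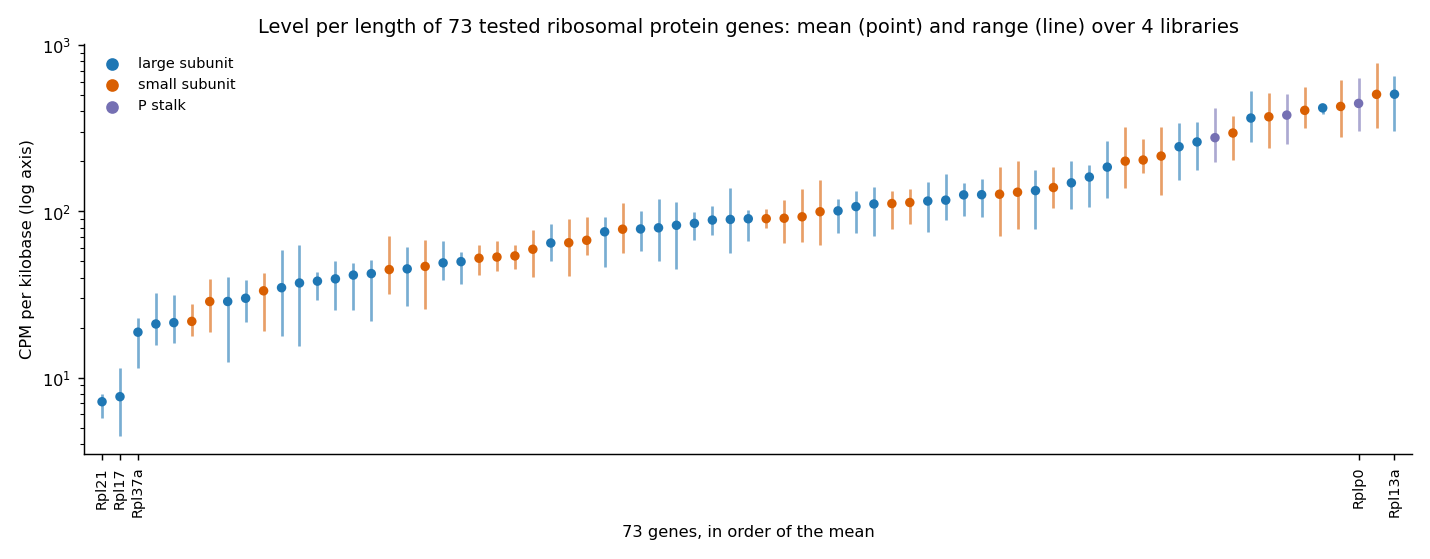
Level of each of the 73 canonical genes tested, as CPM per kilobase of transcript on a log axis. Points are means and lines the range over the 4 libraries, coloured by role, in order of the mean, with 5 genes labelled. From Rpl21 on the left to Rpl13a on the right the means rise from 7.15 to 508, and neighbours overlap in their ranges along most of the order.

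By the deposited RPKM the median over these genes was 21.0, with Rpl21 lowest at 0.670, and the spread was wider, at 259-fold. The length per gene behind the RPKM is not given in the sources used here. By RPKM Rpl13a (168) and Rpl4 (155) were among the 3 highest genes, and the lowest tested were Rpl21, Rpl17 (1.08) and Rps27l (2.15). Rpl4, a protein of the exit tunnel, had 593, 677, 671 and 645 CPM, the flattest profile among the abundant genes. For Rpl21 the CPM was 13.0, 14.9, 14.7 and 10.6, on counts of 51, 36, 56 and 34.

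The order of the genes by level was nearly fixed across libraries. Spearman's rho between any pair of libraries ran from 0.95 to 0.98 over the 77 genes tested, beside 0.76 to 0.91 over all genes tested. These are correlations across genes that share library and mapping, and they are given as a description. Even the library that stands apart, proliferating replicate 2, kept the order, at 0.95 to 0.96 with the other 3. Rpl13a ran from 318 to 683 CPM over the 4 libraries, a wider span in fold than that between its mean per kilobase and that of Rplp0. Per kilobase, Rpl21 and Rpl17 lay below Rpl37a by more than a factor of 2 in their means, and from Rpl37a upwards the means rose in small steps.

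Sequence shared with other genes is common in the family. A script cut the transcript of each gene into all stretches of 100 bases and looked for them, on both strands, in the transcripts of other genes in GENCODE M21. Of the 85 genes 76 shared at least 1 stretch, 31 shared more than 50% of theirs, and the median share was 32.7%. The median was 0% for 78 mitochondrial ribosomal protein genes, of which 34 shared any, and 0% for nuclear genes of oxidative phosphorylation, of which 32 of 95 did. Rpl21, the lowest in level of the genes tested, shared stretches with 40 other genes, but only 16.7% of its own stretches were shared. Rpl17 shared stretches with 16 other genes. Rpl7a, at a higher level than both, shared 73.5% of its stretches, with 37 other genes. Among 13 canonical genes that shared under 10% of stretches the median level was 185 CPM per kilobase, against 90.0 for 32 genes with 10% to 50% and 86.8 for 28 genes above that. Over all 73 genes the relation was weak, with Pearson's r of -0.15 and Spearman's rho of -0.17, given with no test.

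Gene models also overlap on the genome. On GRCm38, 27 of the 85 genes share exon bases with another gene on the same strand, 19 share them on the other strand and 31 carry a small nucleolar or another non-coding RNA. For Rpl35 (chromosome 2, 39001580 to 39005624, minus strand) 66.2% of exon bases lie opposite another gene's exon, and for Rpl23a 59.7%. Rpl24 shares 47.0% and Rpl13a (chromosome 7, 45125558 to 45128761, minus strand) 35.4% of exon bases on their own strand. The library kit keeps strand, but the strand setting of the counting is not given in the sources used here, so the values of these genes are uncertain to that extent.

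Between the states, the fitted differences of the ribosomal protein genes over all 4 libraries had no common direction. Within each replicate pair most did, in opposite directions, as described below. In neurons against proliferating cells, 38 of the 77 genes had a higher and 39 a lower fitted level, while 52.1% of all genes were higher, and the median log2 fold change was -0.003, beside 0.02 over all genes tested. None of the 77 was called at an adjusted p under 0.05 by edgeR's quasi-likelihood test, and neither was any of all 12683 genes (0.00% called). At an unadjusted p under 0.05 there were 0 of the 77, against 3.53% of all genes. DESeq2 called 0 of the 77, against 11 genes higher and 44 lower among all 12683. The standard error of a gene's log2 fold change had a median of 0.50. Here and below it is the absolute log2 fold change divided by the square root of edgeR's F statistic. A change of 0.50 is thus no larger than the typical error. By role, 24 of 41 large subunit genes were higher, 11 of 29 small subunit genes and 0 of 3 stalk genes, with median log2 fold changes of 0.09, -0.10 and -0.16.

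The 3 largest differences upwards were those of Rpl19, Rpl22l1 and Rpl15. Rpl19, a large subunit protein at the subunit interface, had 23.9 and 20.2 CPM in proliferating cells and 46.1 and 45.3 in neurons. Both neuron libraries were above both proliferating ones, with means of 22.1 ± 2.59 and 45.7 ± 0.56 (SD, n = 2). Its log2 fold change was 1.05 with a standard error of 0.47, and it was not called in edgeR, with a p of 0.058 and an adjusted p of 0.9996. Rpl15, a large subunit protein, had 34.6 and 30.9 CPM in proliferating cells and 38.8 and 60.3 in neurons, again without overlap, at a log2 fold change of 0.60 ± 0.48 (standard error). The third gene whose groups did not overlap, named after its values were seen, was Rpl34 of the large subunit, with 47.0 and 72.2 CPM in proliferating cells and 93.8 and 75.3 in neurons, at 0.51 ± 0.47. Such separation upwards held for 3 of 77 genes, against 13.1% of all genes, and downwards for 0 of 77, against 14.9%.

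Rpl22l1 is described with its partner Rpl22 further on. The largest differences downwards were those of small subunit genes. Rps15, which reaches the decoding site, had 76.7 and 161 CPM in proliferating cells and 69.2 and 94.4 in neurons, a log2 fold change of -0.54 ± 0.52 (standard error). Rps13 had 18.8 and 42.1 CPM in proliferating cells and 22.5 and 21.9 in neurons, at -0.45 ± 0.55, and Rps29, a zinc-binding protein of the head, had 23.6 and 35.9 against 23.8 and 21.3, at -0.40 ± 0.48. In all 3 the groups overlapped and proliferating replicate 2 was far above the other 3 libraries. Without that library the log2 fold change was 0.10 for Rps15 and 0.25 for Rps13, the opposite direction.

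**Figure D2:**
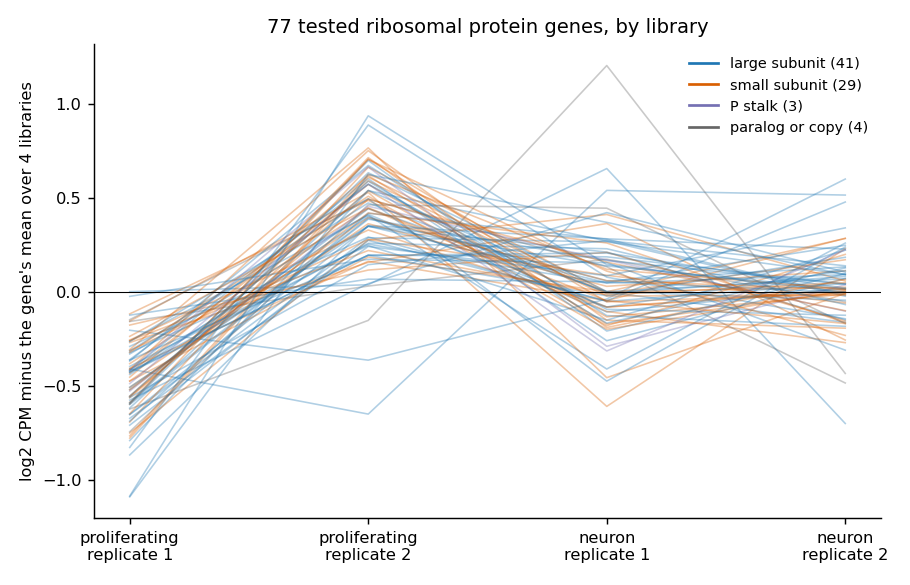
Log2 CPM of the 77 tested genes in each library, as the difference from the gene's own mean over the 4 libraries, 1 line per gene, coloured by role. Most lines are lowest in proliferating replicate 1 (67 genes) and highest in proliferating replicate 2 (62 genes), with the neuron libraries between them.

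Across the 4 libraries 67 of the 77 genes were lowest in proliferating replicate 1, against 20.6% of all genes, and 62 were highest in proliferating replicate 2, against 33.8% of all genes. The 2 replicate pairs thus gave opposite differences between the states. Within replicate 1, 73 of the 77 genes were higher in neurons, with a median log2 difference of 0.52, while 49.9% of all genes were higher and their median was -0.002. Within replicate 2, 70 of the 77 were lower in neurons, with a median of -0.39, while 46.8% of all genes were lower and their median was 0.07. Both held together for 66 of the 77 genes, against 21.2% of all genes. Each pair is 1 library against 1, so the pair differences have no test, and the difference between the pairs was not tested since it leaves no residual degrees of freedom.

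Summed over the members, CPM was 6841, 12698, 9403 and 9740 in library order. The log2 ratio of neuron to proliferating was 0.46 in replicate 1 and -0.38 in replicate 2. For large subunit genes the ratios were 0.50 and -0.30, for small subunit genes 0.44 and -0.46 and for the stalk genes 0.27 and -0.45, so all 3 roles had the same pattern of signs. The neuron libraries lay close together, with a log2 ratio of replicate 2 to replicate 1 of 0.05, and the proliferating libraries lay 0.89 apart.

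The exceptions were few. Rpl19, Rpl15, Rpl13, Rpl34, Rpl37a, Rps4x and Rps7 were higher in neurons in both pairs, by 0.93 and 1.14 on the log2 scale for Rpl19 but only by 0.36 and 0.12 for Rps4x. Rps28, Rpl36, Rps15 and Rpl14 were lower in neurons in both pairs, by -0.44 and -0.29 for Rps28 and by -0.21 and -0.26 for Rpl14. No gene was lower in the first pair and higher in the second. These 11 genes were named after their values were seen.

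**Figure D3:**
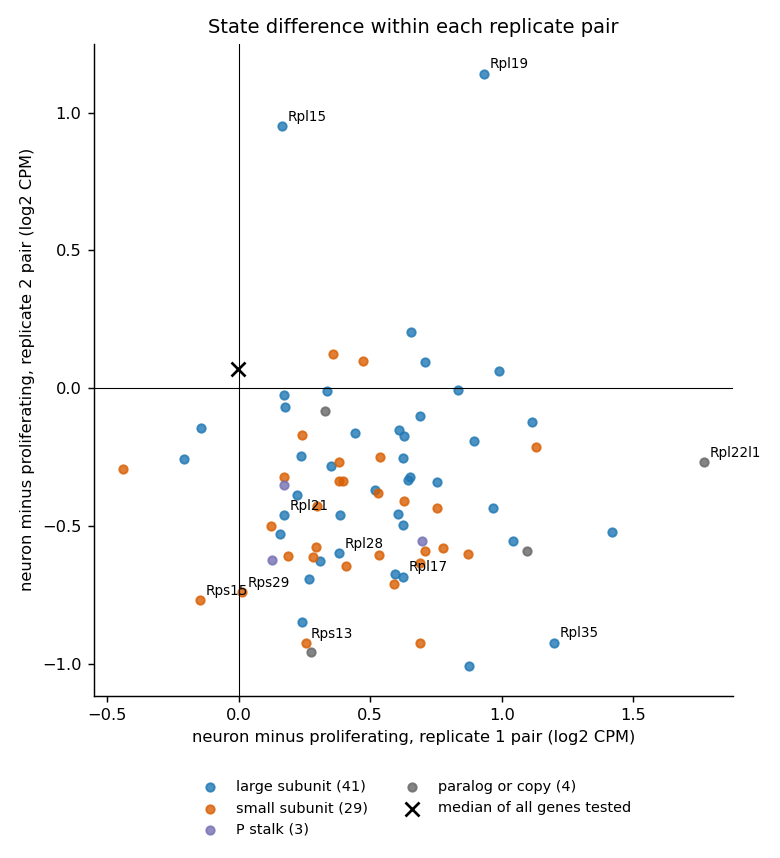
Difference in log2 CPM, neuron minus proliferating, within the replicate 1 pair (horizontal axis) and within the replicate 2 pair (vertical axis) for the 77 tested genes, coloured by role. The lower right part, higher in the first pair and lower in the second, holds 66 genes, while the cross at the median of all genes lies near 0 on both axes.

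Between the replicates, 70 of the 77 genes were higher in replicate 2, with a median log2 fold change of 0.45, beside 0.02 over all genes, of which 51.3% were higher. Again no gene was called by edgeR at an adjusted p under 0.05, among the 77 or among all genes (0.00% called). DESeq2 called 0 of the 77, against 21 genes higher and 32 lower among all genes, of which 4180 were given no adjusted p. At an unadjusted p under 0.05 in edgeR there was 1 of the 77, against 9.10% of all genes. Without neuron replicate 2 there were 21 of 80, with a smallest adjusted p of 0.059 in edgeR, against 3850 of all 13845 genes. The gene in the fit of all libraries was Rplp0, the base of the stalk, named after its values were seen, with 415 and 468 CPM in replicate 1 (proliferating, then neuron) and 867 and 680 in replicate 2. Its log2 fold change was 0.81 with a standard error of 0.33, a p of 0.047 and an adjusted p of 0.54 in edgeR. Both replicate 2 libraries lay above both replicate 1 libraries for 36 of the 77 genes, against 22.3% of all genes, and below them for 0, against 25.1%.

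The 3 largest differences upwards were those of Rpl35, Rpl28 and Rps15. Rpl35, next to the exit tunnel, had 14.7 and 34.6 CPM in replicate 1 and 59.8 and 31.3 in replicate 2, in proliferating cells and neurons in turn. Its groups overlapped, and the log2 fold change of 0.88 ± 0.57 (standard error) came from proliferating cells, where the difference was 1.98, and not from neurons, where it was -0.14. Rpl28 had 62.3 and 81.2 CPM in replicate 1 and 152 and 100 in replicate 2, with no overlap, at 0.81 ± 0.40, and Rps15 had 76.7 and 69.2 against 161 and 94.4, at 0.81 ± 0.41. As the windows above show, the starts of Rpl35 and Rpl28 lie in long runs of C and T and that of Rps15 does not. Downwards, Rpl22l1 stood at -0.85 ± 0.64, Rpl17 at -0.66 ± 0.54 and Rpl21 at -0.12 ± 0.45. Rpl17 had 9.66 and 15.2 CPM in replicate 1 and 9.90 and 5.94 in replicate 2, on counts of 19 to 58.

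The difference between replicates lay in the proliferating libraries. There 75 of the 77 genes were higher in replicate 2, all but Rpl15 and Rpl19, with a median of 0.87 and a middle 50% of genes from 0.62 to 1.10. Over all genes the median was -0.03, with a middle 50% from -0.95 to 0.61, and 48.9% were higher. In neurons 37 of the 77 genes were higher in replicate 2, with a median of -0.03, beside 50.2% and 0.003 over all genes. Without proliferating replicate 2, the median state difference of the tested genes was 0.55, with 77 of 80 genes higher in neurons. Without proliferating replicate 1 it was -0.44, with 72 of 79 lower. Over all genes the medians of these fits were 0.02 and 0.05, in that order.

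Transcript length and base composition moved with the same difference. The 77 genes have a median transcript of 886 bases with 51.6% G and C, against 3175 bases and 49.8% over 11568 matched genes. Among the 25% of all genes lowest in G and C content the median difference of the proliferating libraries, replicate 2 minus 1, was -1.04, and among the 25% highest it was 0.59. The ribosomal protein genes stood above the genes of like content in each of the 4 ranges: at 0.62 for the 7 genes in the lowest range, 0.85 against -0.19 for the 22 in the next, 0.83 against 0.33 for the 29 above that and 0.99 for the 19 in the highest. Among the 25% of genes with the shortest transcripts, which hold 66 of the 77, their median was 0.94 and that of all genes 0.31. Across the 77 genes the fold change between replicates rose with G and C content, at Pearson's r of 0.47 and Spearman's rho of 0.45, given as a description. With a correction for G and C content, chosen after the data were seen, the median fold change between replicates was 0.31, and between states it was 0.08. With it the log2 fold change between replicates was 0.42 for Rpl35, 0.53 for Rpl28 and 0.35 for Rps15, and between states 0.30 for Rpl15, -0.26 for Rps15, -0.29 for Rps13 and 0.58 for Rpl22l1, all smaller than without it. For Rpl19 between states it was larger, at 1.20 in place of 1.05 (p 0.021 and adjusted p 0.72 in edgeR), and for Rpl21 between replicates it was -0.16 in place of -0.12. With a correction for transcript length, also chosen after the data were seen, the median fold change was 0.32 between replicates and 0.04 between states. The part of length and content in the result beyond these values was not tested.

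Paralogs of ribosomal proteins replace or accompany a canonical protein in some tissues. Rpl22l1, a paralog of the large subunit protein Rpl22, had 10.4, 14.4, 36.9 and 11.9 CPM in library order, on 41, 35, 141 and 38 counts. Only neuron replicate 1 was high, so the log2 fold change of 0.98 ± 0.65 (standard error) between states had overlapping groups, and without that library it was -0.08. Of the counts of Rpl22 and Rpl22l1 together, Rpl22l1 held 6.45% (exact 95% interval 4.67 to 8.64), 5.01% (3.52 to 6.91), 13.5% (11.5 to 15.7) and 5.19% (3.70 to 7.06). Rpl22 itself had 151, 274, 236 and 217 CPM.

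Rps27l, a paralog of the small subunit protein Rps27 and a known target of p53, had 25.7, 40.0, 31.2 and 20.3 CPM, and Rps27 had 24.4, 64.0, 45.1 and 41.9. The paralog held 51.3%, 38.5%, 40.9% and 32.7% of the pair's counts, each state having its higher share in replicate 1. In both states the exact intervals of the replicates overlapped. They were 44.1 to 58.4 and 32.5 to 44.8 in proliferating cells, and 35.2 to 46.8 and 26.2 to 39.7 in neurons. Overlap of such intervals does not compare the shares, and the difference between the replicates' shares was not tested. Of the stretches of Rps27, 98.4% also occur in transcripts of other genes, against 0% for Rps27l. The part of shared sequence in these shares was not tested. Rpl7l1, a relative of Rpl7 in the nucleolus, had 48.5, 55.3, 61.0 and 52.2 CPM beside 170, 278, 304 and 277 for Rpl7. It held 22.2%, 16.6%, 16.7% and 15.9% of that pair, so proliferating replicate 1 was the high library. These shares compare counts and not levels per length.

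**Figure D4:**
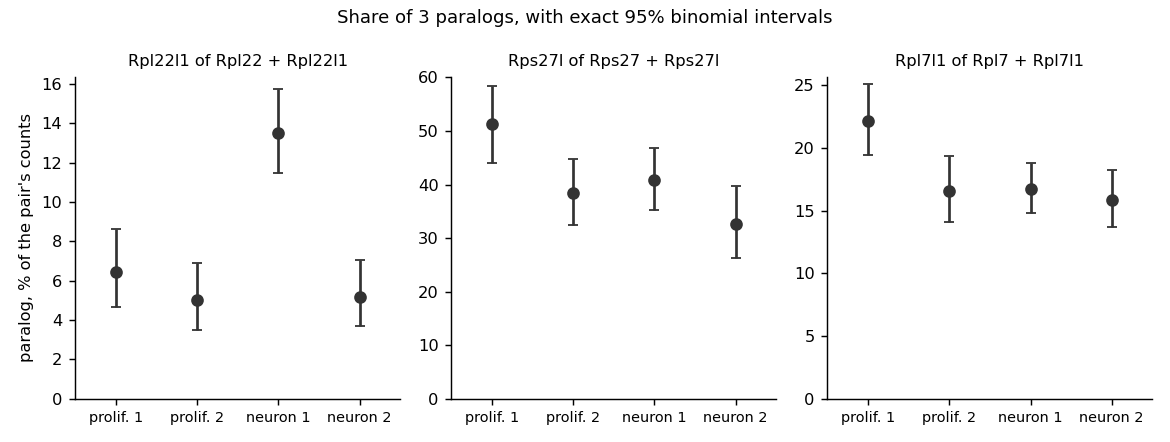
Share of Rpl22l1, Rps27l and Rpl7l1 in the counts of each paralog with its canonical partner, in percent, with exact 95% binomial intervals for counting error, by library. Rpl22l1 is highest in neuron replicate 1 (13.5%), while Rps27l and Rpl7l1 are highest in proliferating replicate 1 (51.3% and 22.2%).

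The tissue-restricted paralogs were near or at 0. Rpl39l and Rpl10l, known from testis, had 0 counts in all 4 libraries, beside 53 to 114 counts for Rpl39 and 223 to 277 for Rpl10. With 3 counts as the limit, a count of 0 allows Rpl10l a share of up to 1.08% to 1.35% of its pair and Rpl39l up to 2.63% to 5.66%. Rpl3l, known from heart and skeletal muscle, had 1 count in proliferating replicate 2 beside 325 for Rpl3, a share of 0.307% (exact 95% interval 0.00777 to 1.70). Rps4l had 1 count in proliferating replicate 1 and 1 in neuron replicate 2, beside 323 and 424 for Rps4x.

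Ribosomal proteins whose symbols lie outside the rule moved with the members. Of 7 such genes 6 were tested, and all 6 were higher in replicate 2 of the proliferating cells, with a median of 0.99. Rack1, the signalling scaffold on the small subunit, had 410, 891, 604 and 733 CPM in library order. Fau, which encodes a small subunit protein fused to a ubiquitin-like one, had 59.7, 128, 68.1 and 75.3 CPM. Of 321 pseudogene symbols 26 were tested, with medians of 0.27 within replicate 1 and -0.12 within replicate 2. They can share reads with the members, and adding all their counts to those of the members gave shares of 0.835%, 1.26%, 0.994% and 0.965%, in the same order of libraries as without them.

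Other genes of the translation and mitochondrial machinery were set beside the members, in lists named by function. Of 75 mitochondrial ribosomal protein genes tested, 47 were higher in neurons within replicate 1 (median 0.22) and 56 lower within replicate 2 (median -0.26). Of 86 nuclear genes of oxidative phosphorylation, 58 were higher within replicate 1 (median 0.22) and 56 lower within replicate 2 (median -0.23). Both lists thus had the signs of the members with smaller medians, and whether the lists differ was not tested. Of 19 genes of elongation and other mRNAs with such a tract, 13 were higher within replicate 1 (median 0.26) and 10 lower within replicate 2 (median -0.03). Eef2, which moves the ribosome along the mRNA, had 1575, 2715, 1848 and 2805 CPM and was higher in both replicate 2 libraries, while Pabpc1, which binds poly(A) tails, had 1230, 848, 918 and 1187 CPM.

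The genes that build ribosomes were set beside the members as well. Of 36 assembly factors 21 were lower in neurons within replicate 1 (median -0.13) and 29 within replicate 2 (median -0.61), and over both 28 were lower, with a median log2 fold change of -0.40. None was called by edgeR, and 1 had an unadjusted p under 0.05 (against 3.53% of all genes). DESeq2 called none of the 36, against 11 genes higher and 44 lower among all genes. Ncl, the nucleolar protein nucleolin, had 900, 391, 1132 and 628 CPM and was thus lower in both replicate 2 libraries. Of its list, 23 of 36 were higher in replicate 2 (median 0.19), and 25 of 36 within proliferating cells (median 0.42). Within neurons 26 of 36 were lower in replicate 2 (median -0.18), as Ncl was. Of 18 genes of RNA polymerase I, which transcribes the ribosomal RNA precursor, 13 were higher within replicate 1 (median 0.25) and 13 lower within replicate 2 (median -0.47).

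**Figure D5:**
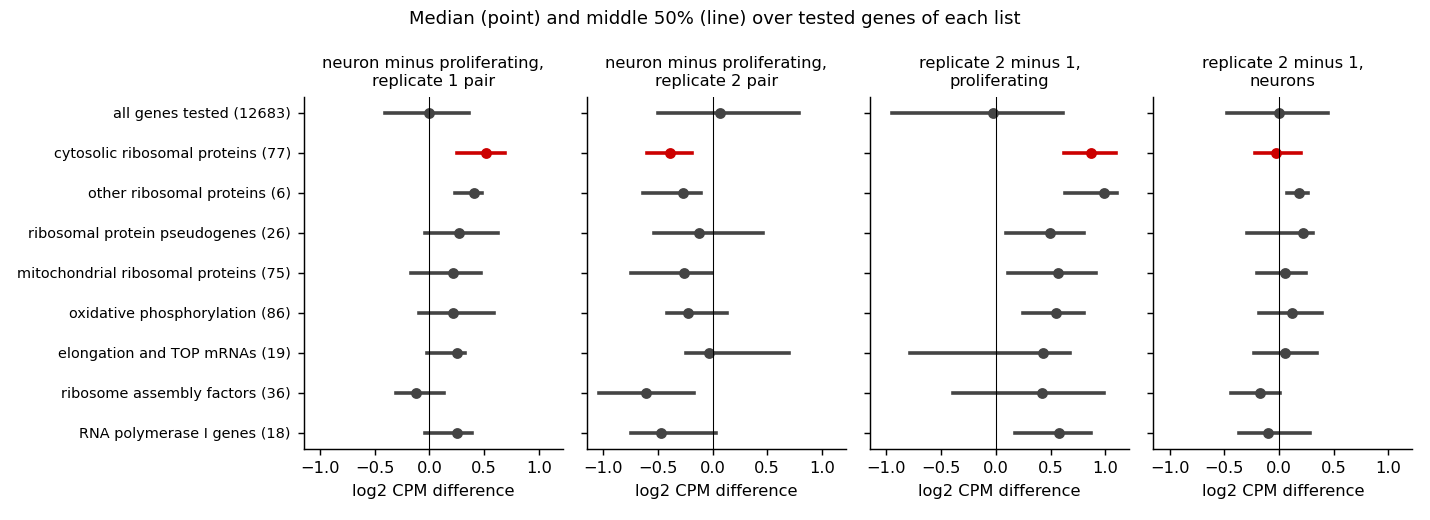
Median (point) and middle 50% (line) of the log2 CPM differences over the tested genes of each list, for the state difference within each replicate pair and for replicate 2 minus 1 within each state. The cytosolic ribosomal protein genes, in red, lie at 0.52, -0.39, 0.87 and -0.03 from left to right, and the median of all genes stays near 0 in all 4 panels.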

How the data were processed

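RNA of 4 cultures was sequenced after depletion of ribosomal RNA, with a stranded kit, per the labels' protocols. The authors deposited a raw count per gene and an RPKM value per gene for each library; the deposited RPKM equals the count divided by the column's total, 18S row included, and by 1 length per gene. The submitters' processing notes name HISAT2, SAMtools, featureCounts, DESeq2, deepTools 3.4.3 and mm10, with no settings; annotation, strand setting and the handling of reads with several matches are not given in the sources used here.

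Groups and replicate numbers came from the titles. Without the 18S row, all genes were fitted with edgeR 4.0.16 in R 4.3.3 (filterByExpr with minimum count 10 and minimum total 15, TMM, glmQLFit, glmQLFTest, Benjamini-Hochberg over all genes tested, threshold 0.05, two-sided), once by state and once by replicate number. Differences within pairs were taken on the log2 CPM scale, with 2 as the prior count. With 2 libraries a group an exact permutation test cannot go below 0.333, so none was run. Levels per length and shared stretches use the longest principal transcript of GENCODE M21, or the longest transcript where none is marked. Deviations from the state means of same-numbered libraries correlated at 0.31 over 12683 genes, and both replicate 2 titles name a set, so the replicate block was run as an alternative. The others were RLE size factors, no scaling factor, the 18S row kept, no gene filter, a minimum of 1 CPM in 2 libraries, limma 3.58.1 on log2(RPKM + 1) and log2(RPKM + 0.1), DESeq2 1.42.0 and leaving out each library. Corrections for G and C content and for transcript length were added after seeing the data. So was a median over the canonical genes only, taken from the main fit. Scripts were tested on simulated data.

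Any member may be named. Those given with values in all libraries are, by rule, the 3 highest and 3 lowest by RPKM, the 3 largest fold changes each way in each comparison, both genes of each paralog pair and up to 3 genes with the highest mean CPM of each list; others, among them Rplp0, Rpl37a, Rpl23a and Rpl24, were chosen after their values were seen. A gene that the rule also names is not reported here. The members and the lists were chosen with earlier results of these data known.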

Additional observations from a re-analysis of the deposited data

Results flagged for a closer look

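Summed over the ribosomal protein genes, the log2 ratio of neuron to proliferating CPM was 0.4589 for replicate 1 and -0.3826 for replicate 2. It was 0.5034 and -0.2981 for the large subunit genes, 0.4444 and -0.4612 for the small subunit genes and 0.2683 and -0.4532 for the P stalk genes. These values were picked out because the state difference had opposite signs in the 2 pairs. Each pair is a single library against another, so the difference between the pairs was not tested. The sums for the neuron libraries, 9403 and 9740 CPM, lie between those of the proliferating ones, 6841 and 12698 CPM.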

How the results depend on the processing

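No ribosomal protein gene was called in either comparison under any alternative run, and DESeq2 called 0 of them too. Over the whole table, counts of calls did change: in the state comparison DESeq2 called 11 genes higher and 44 lower, the fit without a gene filter 41 and 121, the fit without proliferating replicate 1 136 and 149, and the fit with the replicate block 0 and 3, and between replicates DESeq2 called 21 and 32 and the fit without neuron replicate 2 called 357 and 930. With the replicate block the median log2 fold change of the members was 0.06 between states and 0.46 between replicates, and it changed no call of a member. The median between states ran from -0.07 without a scaling factor to 0.12 with the block and a correction for G and C content, so its sign is not fixed by these data. Leaving out a library moved it from -0.4386 (without proliferating replicate 1) to 0.5465 (without proliferating replicate 2). Between replicates the median stayed positive, from 0.26 on log2(RPKM + 1) to 0.48 with the 18S row kept, and from 0.2386 to 0.7786 when a library was left out, the highest without neuron replicate 1. Without a scaling factor the median of all genes between replicates was -0.17 in place of 0.02, and that of the members 0.28. The share of counts held by the members was 0.3616%, 0.2965%, 0.3788% and 0.2151% with the 18S row in the total and 0.8353%, 1.2607%, 0.9941% and 0.9645% with pseudogene rows added, for proliferating replicates 1 and 2 and neuron replicates 1 and 2. Of the named genes, direction changed when 1 library was left out: between states Rpl22l1 ran from -0.0785 (no neuron replicate 1) to 1.5653, and Rps15 from -1.0518 to 0.1024 and Rps13 from -0.9929 to 0.2498, both positive in the fit that leaves out proliferating replicate 2. Between replicates Rpl22l1 ran from -1.4434 to 0.4110 (no neuron replicate 1) and Rpl21 from -0.3614 to 0.1232, being 0.0510 and 0.1232 when either neuron library was left out. The cause of these changes was not tested beyond the fewer libraries in each fit. Low genes such as Rpl17 rest on as few as 19 counts.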
